A study of Mus musculus with 120 samples.

Results

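Genes of the circadian clock were followed in tissue that grew into an implanted scaffold, and 10 of the 55487 genes shared by both count tables were chosen by name for this: Arntl, Clock, Npas2, Per1, Per2, Per3, Nr1d1, Nr1d2, Dbp and Cirbp. Their names were matched exactly to the gene names in the tables, and each was found once. Female mice received subcutaneous microporous polycaprolactone scaffolds (an immunological niche, IN, in which host cells settle) at 4 weeks of age, and each IN was taken out and replaced at later times, so most mice gave several libraries. Explants began at 6 weeks of age, so INs of that age were first implants, and later ones could be replacements. Total RNA of the whole IN was sequenced in 2 batches, which differ in both mouse cohort and sequencing instrument. The groups were NOD/ShiLtJ mice that became hyperglycemic (progressors, PR, 58 libraries of 10 mice), NOD/ShiLtJ mice that did not (nonprogressors, NP, 39 libraries) and NOR/LtJ mice, a related strain that does not develop diabetes (23 libraries of 5 mice, all in batch 1). In batch 1, NOR and NP were sampled every 4 weeks between 6 and 22 weeks of age in 4 or 5 mice each. PR mice 1 to 5 were sampled there at 6 weeks of age, 5, 3 and 1 weeks before onset and at onset. A further 6 NP libraries carry a mouse number of 1 or 2 and, in place of an age, a time of 31, 38 or 108 days after implantation. In batch 2, NP mice were sampled at 6 weeks (7 mice) and 14 weeks (6 mice), and PR mice 6 to 10 at the same times as in batch 1. All 8 libraries of 7 weeks before onset are in batch 2, 4 of them from PR mice 1 to 4 whose other libraries are in batch 1. No group carries a transgene or was given a test drug, and mice of all groups had isoflurane anesthesia and an analgesic for implantation and explant. The hour of the day at which an IN was taken is not given in the sources used here. A bulk library mixes the cells of the IN, and fewer cells that express a gene cannot be told apart from less RNA per cell.

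The circadian clock is a feedback loop that runs in most cell types. BMAL1, the protein of Arntl, pairs with CLOCK or its relative NPAS2 and switches on genes through E-boxes in their promoters. Among those genes are the Per genes, whose proteins shut the pair down again, Nr1d1 and Nr1d2, which encode the repressors REV-ERB alpha and beta that hold down Arntl and Npas2, and Dbp, whose protein acts through D-boxes on further genes such as Per3. In peripheral tissues Arntl and Npas2 therefore peak at the opposite time of day to Dbp, Nr1d1 and the Per genes. Cirbp encodes a cold-inducible RNA-binding protein whose mRNA follows body temperature. Per1 and Per2 also respond directly to glucocorticoid hormones.

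Promoter sequences were available from RefSeq (GRCm38.p6) for 9 of the 10 genes, from 250 bases before to 50 bases after each start site. They were searched on both strands for the E-box CACGTG, the D-box TTATGTAA, the REV-ERB and ROR element cores TAGGTCA and TGGGTCA, and the cyclic AMP response element TGACGTCA. Among all 32851 promoters, 7.15% hold the E-box, 0.938% the D-box, 2.61% TAGGTCA, 3.98% TGGGTCA and 1.79% TGACGTCA. Of the genes studied here, Per1 holds the E-box in 1 of its 2 promoters, Per3 the D-box in its only one and Arntl TAGGTCA in 1 of its 2. No match was found for TGGGTCA or TGACGTCA. Whether these matches exceed the shares among all promoters was not tested. The following 3 stretches are shown because they carry these matches, with the matching letters in capitals. The Per3 stretch is chr4:151044666-151044915 on the minus strand and has the D-box letters 2 times, starting 205 and 158 bases before the start site. The Per1 stretch is chr11:69098699-69098948 on the plus strand, with the E-box starting 166 bases before the start site. The Arntl stretch is chr7:113207526-113207555 on the plus strand, just after the start site of the second Arntl promoter in the table. All 3 are written 5′ to 3′, and a match of letters does not show that a factor binds there.
Per3: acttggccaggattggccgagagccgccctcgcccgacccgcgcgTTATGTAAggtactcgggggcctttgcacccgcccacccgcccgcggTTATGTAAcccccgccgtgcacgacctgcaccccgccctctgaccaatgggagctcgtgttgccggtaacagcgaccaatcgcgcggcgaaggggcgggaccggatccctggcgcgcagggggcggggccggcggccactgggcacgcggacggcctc
Per1: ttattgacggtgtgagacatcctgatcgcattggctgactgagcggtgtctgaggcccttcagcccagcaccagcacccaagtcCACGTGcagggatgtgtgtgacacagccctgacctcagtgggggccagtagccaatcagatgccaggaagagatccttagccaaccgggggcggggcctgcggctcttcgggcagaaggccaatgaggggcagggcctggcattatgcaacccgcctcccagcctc
Arntl: agggaaggcagaaagTAGGTCAgggacgga

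The median library total was 30186412 counts in batch 1, where totals lay between 4722396 and 56185434, and 36440355 counts in batch 2, where they lay between 29029239 and 43880986. In 1 library, NOR mouse 5 at 18 weeks, 85.7% of 8616431 counts fell on the ribosomal RNA gene CT010467.1, against at most 12.6% in any other. The 10 genes had between 6 and 80 counts there, so its values are imprecise. Leaving that library out did not change how many of the 10 genes passed any of the 3 tests it entered. All levels below are CPM (a gene's counts scaled to a common library total) on library sizes scaled within each batch, and levels in different batches are not on a common scale except where a test says so.

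All 10 genes were detected in all 120 libraries, and they differed in how far each ranged over the libraries. Clock, the partner of BMAL1, was the steadiest, from 43.75 to 95.52 CPM in batch 1 (2.18-fold) and from 87.14 to 127.1 CPM in batch 2 (1.46-fold). Arntl ran from 5.644 to 41.67 CPM in batch 1 (7.38-fold) and from 13.32 to 53.45 CPM in batch 2 (4.01-fold). Npas2 ran from 12.92 to 65.08 CPM in batch 1 (5.04-fold) and from 19.85 to 55.84 CPM in batch 2 (2.81-fold). Dbp and the Per genes spread further in batch 1 than the activators did. Dbp, a D-box activator, had the widest range of the 10, from 1.875 to 112.7 CPM in batch 1 (60.1-fold) and from 2.313 to 72.29 CPM in batch 2 (31.2-fold). Per2 ranged 21.5-fold in batch 1 and 6.72-fold in batch 2, Per3 17.7-fold and 7.45-fold, and Per1 10.3-fold and 3.16-fold. The repressor genes ranged less than Dbp: Nr1d1 9.09-fold and 4.95-fold, and Nr1d2 4.61-fold and 3.6-fold. Cirbp stayed between 5.814 and 24.82 CPM in batch 1 (4.27-fold) and between 7.957 and 24.41 CPM in batch 2. In 3 cases 1 library carried much of the range: it was 13.6-fold for Per2 in batch 1 without NOR mouse 2 at 10 weeks (118.1 CPM), 2.8-fold for Cirbp in batch 1 without NOR mouse 5 at 18 weeks (5.814 CPM) and 18.1-fold for Dbp in batch 2 without PR mouse 8 at 1 week before onset (2.313 CPM).

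**Figure D1:**
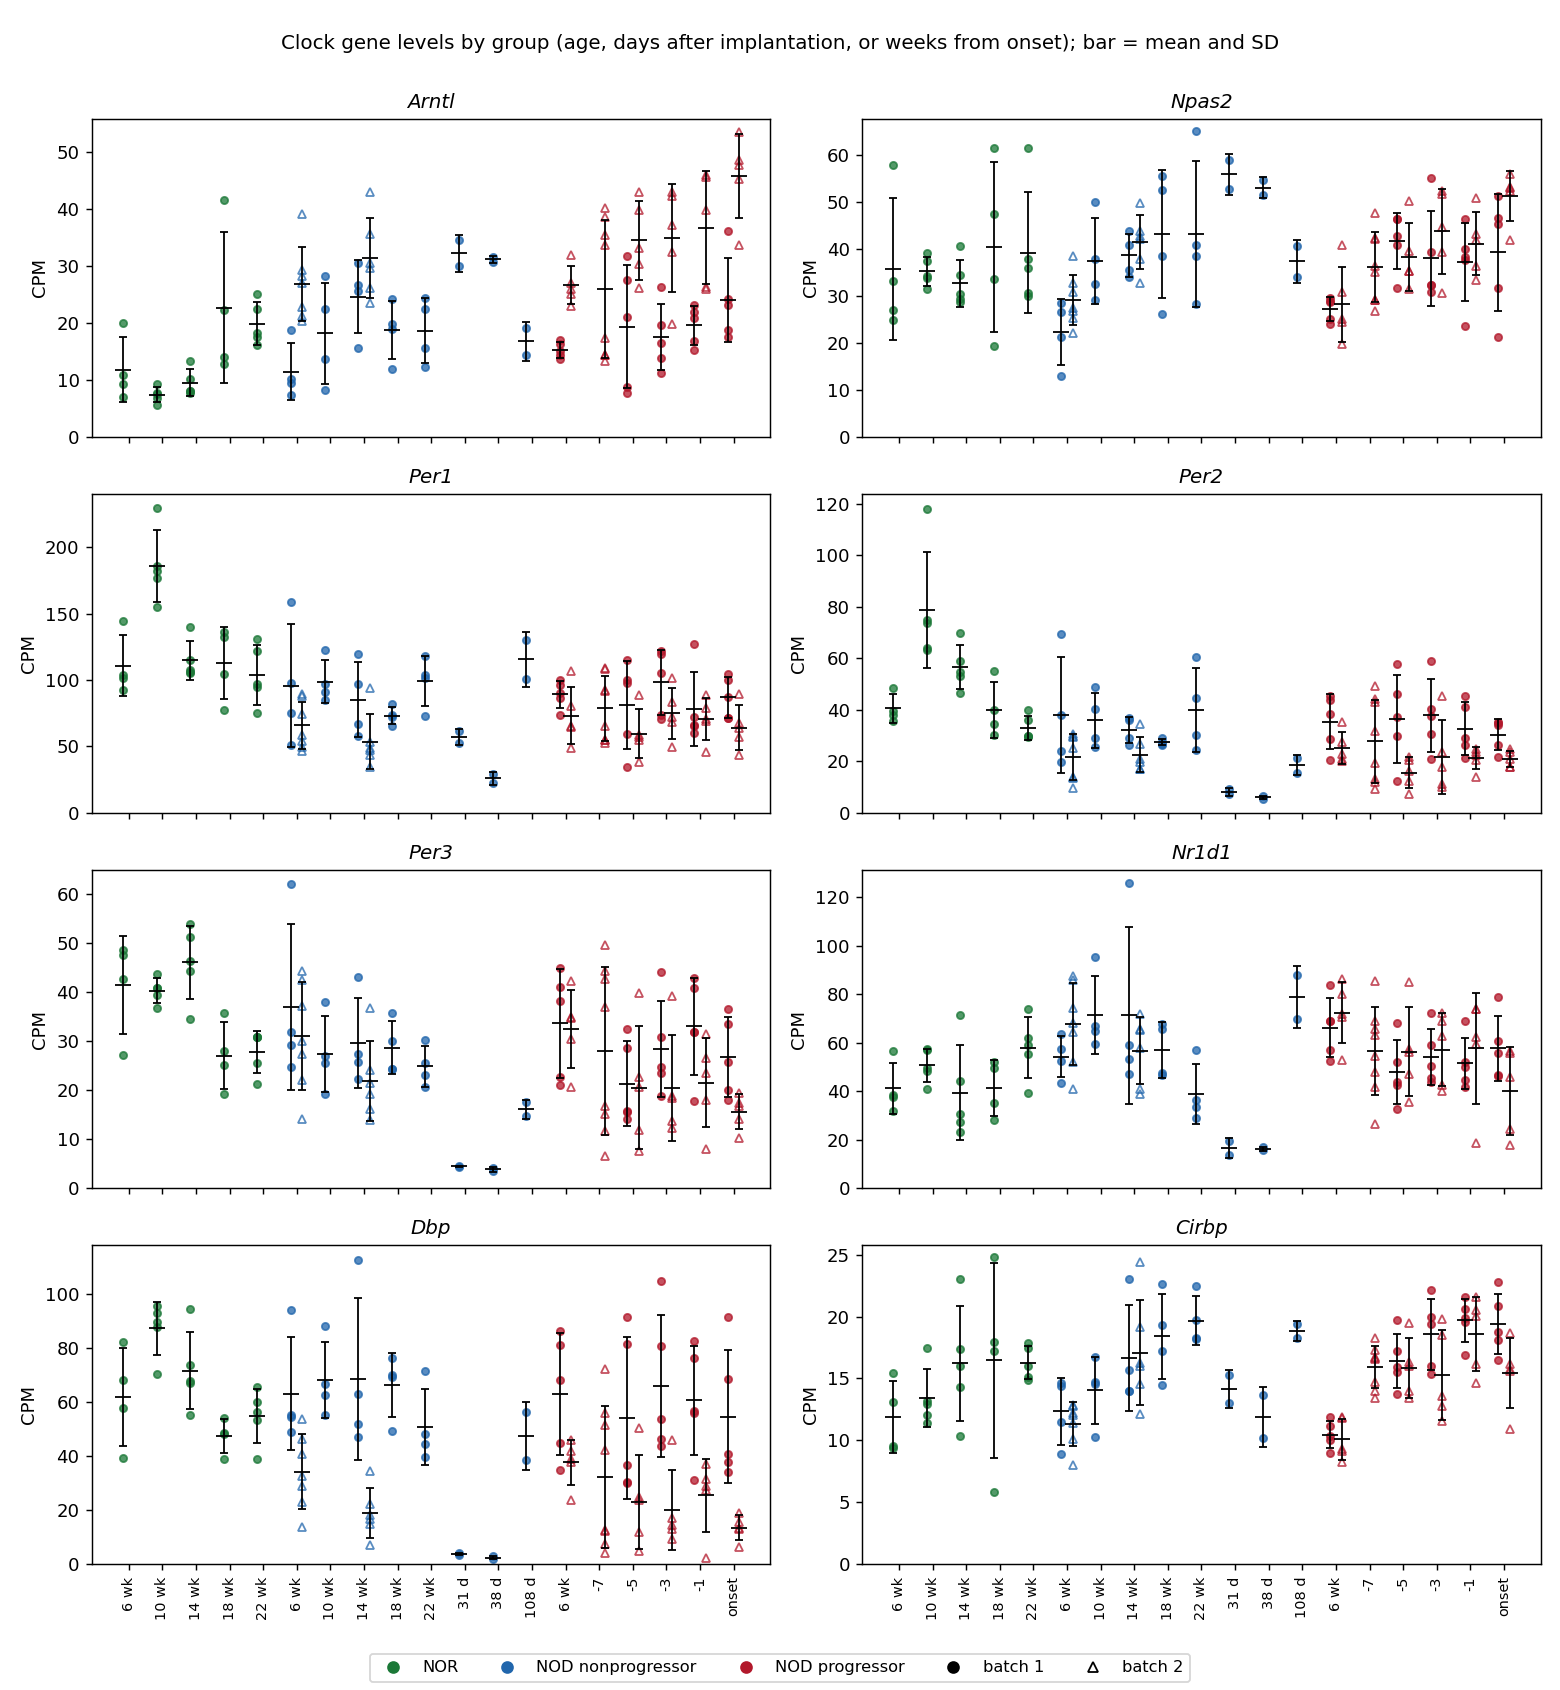
CPM of Arntl, Npas2, Per1, Per2, Per3, Nr1d1, Dbp and Cirbp by group and time, with 1 point per library and both batches shown. Clock and Nr1d2 are not drawn. Dbp ranges from 1.875 to 112.7 CPM across the libraries of batch 1.

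Per kilobase of exon, Nr1d1, Nr1d2 and Per1 were among the 4 highest genes in both batches, and Arntl and Per3 among the 3 lowest. In batch 1 the median library had 18.8 CPM per kilobase for Dbp, 17.3 for Per1, 16.9 for Nr1d1, 12.7 for Nr1d2, 7.48 for Npas2, 6.13 for Cirbp, 6.05 for Per2, 4.96 for Clock, 3.01 for Per3 and 2.26 for Arntl. In batch 2 it had 19.9 for Nr1d1, 14.3 for Nr1d2, 11.5 for Per1, 7.97 for Npas2, 7.77 for Dbp, 7.68 for Clock, 5.64 for Cirbp, 4.15 for Arntl, 3.54 for Per2 and 2.2 for Per3. Of the 9 neighbouring pairs in each order, 7 had overlapping middle ranges (lower to upper quartile over libraries) in either batch. In batch 1 the 2 gaps lay between Nr1d2 and Npas2 and between Clock and Per3. In batch 2 they lay between Per1 and Npas2 and between Clock and Cirbp. By the GRCm38 annotation (GENCODE M21), Dbp (chr7:45705088-45710203) shares 539 of its 2993 exon bases with Sphk2 on the opposite strand, and Nr1d1 (chr11:98767932-98775333) shares 263 of 3077 with Thra. Whether the counting used strand is not stated, so reads over these bases cannot be assigned with certainty.

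At 6 weeks of age each mouse gave 1 library, and pairs of the 10 genes could be compared across independent mice. Of 90 correlations (45 pairs in each of 13 mice of batch 1 and 12 of batch 2, as deviations of log2 CPM from the group mean), 29 passed a permutation test within groups after Benjamini-Hochberg adjustment over all 90. Batch 1 held 11 of these, 7 positive and 4 negative, and batch 2 held 18, 9 positive and 9 negative. By Spearman's rho, 11 of the 90 passed, all among the 29. The 8 pairs that passed in both batches by Pearson's r had the same sign in both: Arntl with Npas2, Per2 with Per3, Per2 with Dbp, Per3 with Nr1d2 and Per3 with Dbp were positive, and Arntl with Nr1d2, Npas2 with Per3 and Npas2 with Dbp were negative.

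Per3 and Dbp, a D-box gene and a D-box activator, were the closest pair in batch 1. Their Pearson r was 0.932 (2-sided permutation p = 0.00087, adjusted p = 0.0118) and their rho 0.923 (permutation p = 0.00264, adjusted p = 0.0301), and r was 0.933 without the 2 mice farthest from the median of Per3. In batch 2 their r was 0.888 (permutation p = 0.00149, adjusted p = 0.0124), rho 0.741 (permutation p = 0.018, adjusted p = 0.0774) and r without the 2 farthest mice 0.669. The relation thus passed by r in both batches and by rho in batch 1. The Per3 promoter shown above is the one of the 9 genes that holds the D-box letters, and whether they have a part in this relation was not tested.

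The most negative pair was Arntl with Per3 in batch 2, an activator against a target. Their r was −0.962 (permutation p = 7e-05, adjusted p = 0.0036), rho −0.937 (permutation p = 0.00017, adjusted p = 0.0153) and r without the 2 farthest mice −0.913. In batch 1 the same pair had r of −0.619 (permutation p = 0.0303, adjusted p = 0.0757) and did not pass. Arntl with Dbp followed the same course, with r of −0.85 in batch 2 (permutation p = 0.00284, adjusted p = 0.017; rho −0.734, permutation p = 0.0229, adjusted p = 0.0891; r of −0.604 without the 2 farthest mice) and −0.517 in batch 1 (permutation p = 0.0679, adjusted p = 0.153). Whether these pairs differed between batches was not tested.

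Within the activators, Arntl and Npas2 went together across mice, with r of 0.852 in batch 1 (permutation p = 0.0059, adjusted p = 0.0249) and 0.75 in batch 2 (permutation p = 0.00186, adjusted p = 0.0129). By rho they passed in batch 1 (0.802, adjusted permutation p = 0.0301) and not in batch 2 (0.741, adjusted permutation p = 0.0502). Clock passed with none of its 9 partners in either batch, its closest being Npas2 in batch 1 (r of 0.727, adjusted permutation p = 0.0509). Cirbp passed with Npas2 (r of 0.82, adjusted permutation p = 0.0342) and Per3 (r of −0.707, adjusted permutation p = 0.0342) in batch 1 and with none in batch 2, where its r with Npas2 was −0.0634. By rho neither passed (0.758, adjusted permutation p = 0.077, and −0.67, adjusted permutation p = 0.0555). Per1 and Per2 passed in batch 1 (r of 0.828, permutation p = 0.00516, adjusted p = 0.0232) and had r of 0.302 in batch 2 (permutation p = 0.353, adjusted p = 0.474). Of the 29 correlations, 4 fell under 0.5 in size without the 2 farthest mice: Arntl with Nr1d2 (−0.432) and Npas2 with Dbp (−0.479) in batch 1, and Npas2 with Nr1d1 (−0.284) and Nr1d1 with Nr1d2 (0.434) in batch 2. These 4 were weaker without those mice, and all 29 kept their sign.

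The same arrangement showed over all libraries, given here without a test because libraries of a mouse are not independent and share depth and tissue. They include the 6-week libraries tested above. The 8 libraries of 7 weeks before onset share 1 group mean, so a split between their mice, described below, stays in the values of batch 2. After taking out each group's mean, r over the 74 libraries of batch 1 and the 46 of batch 2 was 0.869 and 0.934 for Per3 with Dbp, 0.681 and 0.85 for Nr1d1 with Dbp, 0.719 and 0.787 for Per3 with Nr1d2, and 0.667 and 0.705 for Arntl with Npas2. Between the arms it was −0.586 and −0.798 for Arntl with Nr1d2, −0.51 and −0.694 for Arntl with Dbp, and −0.493 and −0.751 for Arntl with Per3. Arntl with Nr1d1, whose protein represses Arntl, had weaker values of −0.256 and −0.502. Per1 with Per2 had 0.67 and 0.557.

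**Figure D2:**
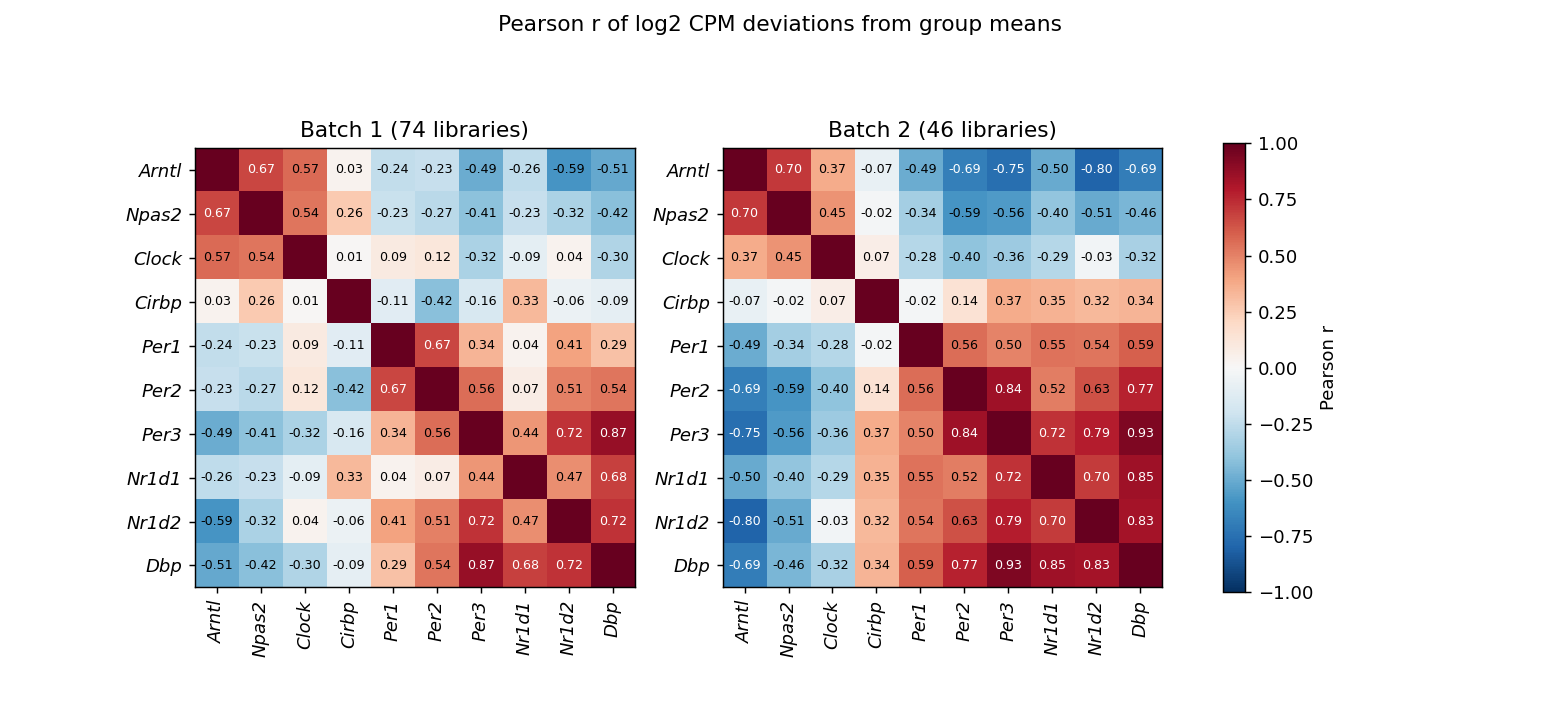
Pearson r between each pair of the 10 genes over the libraries of each batch, as deviations of log2 CPM from group means. Arntl and Npas2 are positive with each other (0.67 and 0.70) and negative with Per3, Nr1d2 and Dbp in both batches.

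The genes whose levels went most with Dbp and with Per3 were all clock genes. Genes were ranked by the lower of the r in batch 1 and the r in batch 2 over all libraries, again as a description with the limits just given. With Dbp went Tef, its close relative (r of 0.871 in batch 1 and 0.947 in batch 2), Per3, Nr1d2 (0.722 and 0.832), Nr1d1 and Cry2, a repressor that acts with the Per proteins (0.689 and 0.616). With Per3 went Dbp, Tef (0.858 and 0.972), Hlf, another D-box activator (0.794 and 0.731), Nr1d2 and Cry2 (0.72 and 0.679). Arntl went with Npas2, Leo1 (0.792 and 0.618), Slfn10-ps, Glt1d1 and Cblb, and most against Rere (−0.672 and −0.753), Tef (−0.648 and −0.771), Il34, Sh2b3 and Nr1d2. Per1 went with Wee1, a cell-cycle kinase under clock control (0.741 and 0.673), Tsc22d3, a glucocorticoid-induced gene (0.771 and 0.645), Gm49838, Per2 and Ccnd3. Cirbp had no clock gene among its 5, which were Gm10602 (0.678 and 0.695), Treml1, Dgke, Armcx5 and Wdr33. Of the 5 that went most against Dbp, the first were Arntl and Leo1 (−0.522 and −0.483), and for Cirbp the first was Adamts3 (−0.598 and −0.537).

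**Figure D3:**
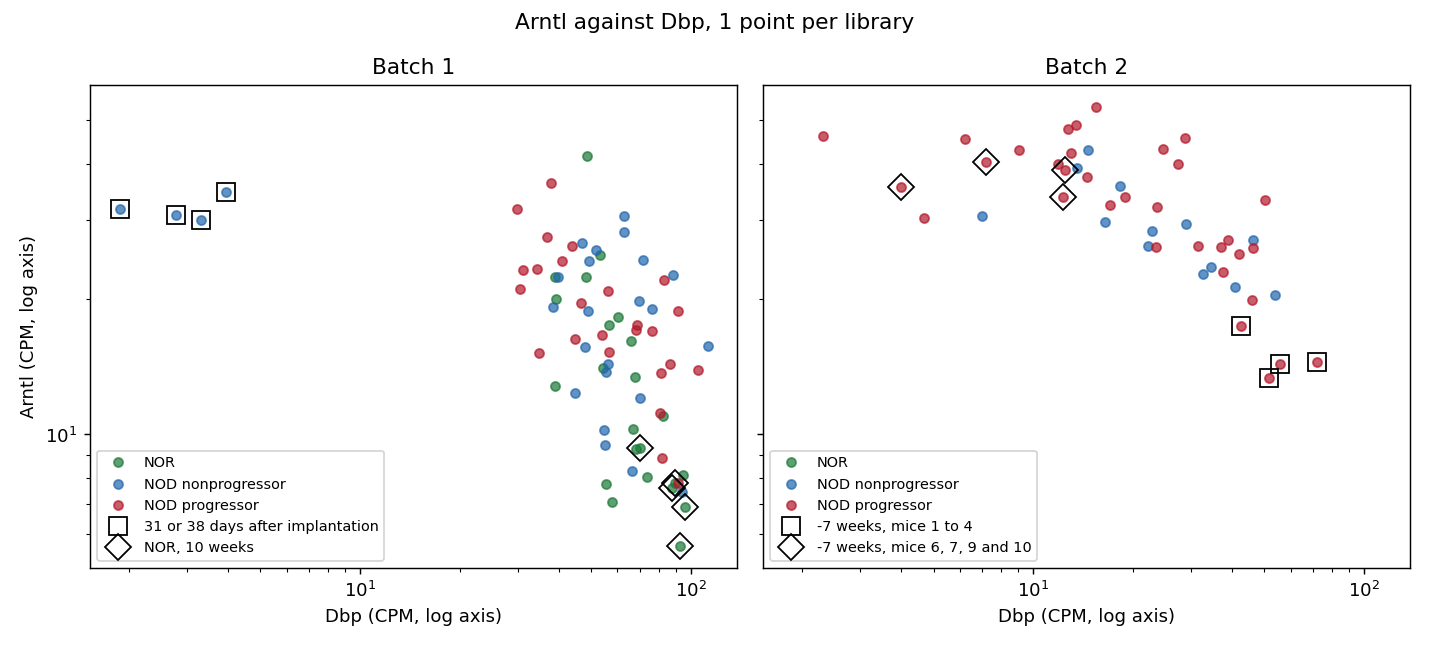
Dbp against Arntl in each library, both as CPM on log axes, by batch. The 31 and 38 day libraries of batch 1 lie at 1.875 to 3.93 CPM of Dbp with 29.96 to 34.54 CPM of Arntl, and in batch 2 the 7-week libraries of mice 1 to 4 and of mice 6, 7, 9 and 10 do not overlap on either axis (Dbp 42.42 to 72.29 CPM against 3.991 to 12.49 CPM).

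The 4 NP libraries of 31 and 38 days after implantation stood apart from the 20 NP libraries of batch 1 with a stated age, with 5 of the 10 genes lower in all 4 than in any of the 20. Of all genes, 0.704% did not overlap between these libraries. The labels number their mice 1 and 2 and give no age. Whether these are the mice 1 and 2 of the libraries with a stated age is not said. The 4 libraries were set apart after their values were seen, so the difference was not tested. Dbp had 3.93 and 3.299 CPM at 31 days and 2.776 and 1.875 CPM at 38 days, against 39.7 to 112.7 CPM in the 20 (median 59.1), a difference of −4.39 on the log2 scale. Per3 had 4.543, 4.406, 4.204 and 3.515 CPM against 19.3 to 62.05 CPM. Per2 had 7.103, 9.04, 6.493 and 5.507 CPM against 19.84 to 69.51 CPM. Both repressor genes were lower too. Nr1d1 had 19.4, 13.82, 16.87 and 15.78 CPM against 28.92 to 125.7 CPM, and Nr1d2 had 23.4, 27.62, 23.52 and 26.24 CPM against 56.63 to 89.29 CPM.

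Arntl lay above the other libraries' range in 3 of these 4 libraries, and Npas2 inside it. Arntl had 34.54, 29.96, 30.75 and 31.63 CPM against 7.462 to 30.63 CPM, and Npas2 had 58.99, 52.85, 51.49 and 54.6 CPM against 12.92 to 65.08 CPM, so both overlapped. Per1 overlapped as well, with 52.86, 61.64, 22.26 and 29.56 CPM against 51.27 to 158.6 CPM. Of the 41 other clock, temperature and glucocorticoid genes examined, those that did not overlap were also lower: Tef (18.75 to 24.55 CPM against 67.8 to 147.9 CPM), Cry2, Ciart, Hspa1a and Hspa1b. The 2 libraries of 108 days shared it in part. Per3 was below the range of the 20 in both, at 17.52 and 14.7 CPM, Per2 in 1 of them, at 21.14 and 15.64 CPM, and Dbp narrowly in 1, at 56.25 and 38.39 CPM. Nr1d1 (87.87 and 69.8 CPM), Nr1d2 (78.62 and 63.03 CPM) and Arntl (14.37 and 19.24 CPM) lay inside it. Totals of the 4 libraries were between 22490033 and 52451422 counts. Summed CPM of the 6 macrophage markers was 4860 to 5640 against 3260 to 5480 in the 20, that of the 5 T cell markers 25.2 to 44.7 against 3.12 to 26.4 and that of the 5 fibroblast markers 13800 to 19000 against 9400 to 41200, with no marker of these lists at 0 in either group, and their part in the result was not tested.

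The 8 PR libraries of 7 weeks before onset, all sequenced in batch 2, fell apart by mouse into those of mice 1 to 4 and those of mice 6, 7, 9 and 10. For 8 of the 10 genes the values of the 4 and the 4 did not overlap, 6 higher and 2 lower in mice 1 to 4, where 3.6% of all genes did not overlap. Dbp had 72.29, 51.69, 55.86 and 42.42 CPM in mice 1, 2, 3 and 4 and 3.991, 7.199, 12.49 and 12.3 CPM in mice 6, 7, 9 and 10, a difference of 2.73 on the log2 scale. Per3 had 49.59, 42.68, 44.31 and 36.93 CPM against 6.66, 16.78, 11.71 and 15.13 CPM. Per2 had 42.86, 44.02, 49.28 and 31.73 CPM against 12.05, 19.34, 9.228 and 13.06 CPM. The gap was smaller in Per1 and in the repressor genes. Per1 had 108.9, 92.66, 108.3 and 92.07 CPM against 65.09, 55.03, 52.54 and 55.1 CPM, Nr1d1 had 85.36, 63.09, 68.9 and 65.49 CPM against 26.56, 41.63, 47.94 and 54.38 CPM, and Nr1d2 had 113.4, 112.6, 115.8 and 121.5 CPM against 63.98, 44.82, 52.69 and 68.75 CPM.

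Arntl and Npas2 ran the other way in these 8 libraries. Arntl had 14.48, 13.32, 14.35 and 17.38 CPM in mice 1 to 4 against 35.49, 40.27, 38.66 and 33.77 CPM, a difference of −1.32 on the log2 scale, and Npas2 had 26.82, 29.16, 35.1 and 29.26 CPM against 42.31, 42.14, 47.61 and 36.43 CPM. Clock (93.55 to 108.3 CPM against 104.4 to 116.5 CPM) and Cirbp (14.72 to 16.69 CPM against 13.45 to 18.25 CPM) overlapped. Of the 41 other genes, Tef (109.0 to 136.5 CPM against 29.52 to 49.55 CPM) and Wee1 were higher and Nfil3, a repressor at D-boxes, lower in mice 1 to 4. The 2 sets of mice are of different cohorts, and this split was seen in the values first, so no test is given. Summed CPM of the macrophage markers was 7220 to 10300 in mice 1 to 4 and 4680 to 8810 in the others, of the 5 skeletal muscle markers 0.508 to 2180 (median 4.32) and 43.3 to 3000 (median 1610), of the 5 adipocyte markers 60.1 to 180 and 53.8 to 1010 and of the 5 erythroid markers 468 to 861 and 632 to 3000, and their part in the result was not tested.

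In NOR mice, 6 of the 10 genes differed between the 5 ages in edgeR's quasi-likelihood test over all genes, against 8.24% of all 19628 genes tested. They were Arntl (Benjamini-Hochberg adjusted p = 0.00448), Per1 (adjusted p = 0.00651), Per2 (adjusted p = 0.000336), Per3 (adjusted p = 0.0122), Nr1d2 (adjusted p = 0.0157) and Dbp (adjusted p = 0.0187), all from edgeR. The repressor gene Nr1d1 (adjusted p = 0.436) and Clock, Npas2 and Cirbp (adjusted p between 0.395 and 0.916) did not pass. The 10-week libraries stood out among the ages. There Per1 was 177.1, 229.5, 155.1, 186.1 and 181.9 CPM in mice 1 to 5, with a mean of 186.0 ± 27.13 CPM (SD, n = 5) against means between 104.0 and 114.8 CPM at the other ages. Per2 was 63.97, 118.1, 63.15, 73.86 and 74.72 CPM, with a mean of 78.77 ± 22.66 CPM (SD, n = 5) against 32.99 ± 4.723 CPM (SD, n = 5) at 22 weeks. Arntl was lowest there, at 6.899, 7.616, 7.787, 9.352 and 5.644 CPM, a mean of 7.46 ± 1.353 CPM (SD, n = 5), and it was 19.87 ± 3.754 CPM (SD, n = 5) at 22 weeks.

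Fewer genes passed without those 10-week libraries. In the remaining ages 1 of the 10 genes, Per2, passed (adjusted p = 0.0413), and Arntl (adjusted p = 0.139), Per1 (adjusted p = 0.955), Per3 (adjusted p = 0.0721), Nr1d2 (adjusted p = 0.202) and Dbp (adjusted p = 0.376) did not, in the edgeR test. Arntl still had means of 9.543 CPM at 14 weeks and 22.74 CPM at 18 weeks, and Per3 had its highest and lowest means at those ages, 46.08 and 27.03 CPM, whereas the means of Per1 at the remaining ages lay within 104.0 to 114.8 CPM. Leaving out each mouse in turn left 3 to 5 genes, the 3 without mouse 1 or mouse 3, and Arntl and Per2 passed each time. Of the other genes examined, 3 of 18 clock genes (Tef, Nfil3 and Wee1), 2 of 10 temperature genes (Hspa1a and Hspa8) and 2 of 13 glucocorticoid-responsive and immediate early genes (Fkbp5 and Tsc22d3) passed. Fkbp5, a glucocorticoid-induced gene, was 51.97 to 81.19 CPM at 10 weeks and 21.96 to 48.23 CPM at the other NOR ages (adjusted p = 0.000218), and Tsc22d3 was 229.8 to 300.3 CPM against 99.46 to 229.0 CPM (adjusted p = 0.00476). Summed CPM of the T cell markers was 11.1 to 48.7 in the 10-week NOR libraries and 0.0 to 46.7 in the other NOR libraries, and its part in the result was not tested.

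Set beside NP of the same age, 3 of the 10 genes did not overlap at 10 weeks, Per1 and Per2 higher and Nr1d1 lower in NOR, where 7.56% of all genes did not overlap. NP at 10 weeks had 96.92, 90.75, 85.16 and 122.4 CPM of Per1 and 25.38, 28.98, 40.26 and 48.89 CPM of Per2. At 14 weeks Arntl was lower in NOR without overlap (7.782 to 13.44 CPM against 15.71 to 30.63 CPM in NP). Per2 was higher there (46.62 to 69.67 CPM against 26.46 to 36.97 CPM), and the other genes of the 10 overlapped. Per2 was also higher in NOR at 18 weeks (30.39 to 55.23 CPM against 26.47 to 28.88 CPM). Its highest value there came from mouse 5, the library that ribosomal RNA dominated. In that library Per1 was 77.52 CPM, inside the NP range of 65.72 to 81.69 CPM. The other NOR libraries of 18 weeks had 104.9, 132.3 and 135.9 CPM of Per1. Cirbp was lower in NOR at 22 weeks (14.89 to 17.84 CPM against 18.22 to 22.45 CPM). Arntl overlapped at every age but 14 weeks. The share of all genes without overlap was not computed at 14, 18 and 22 weeks, so these cases are a description only. The course over age as a whole was compared by the interaction of strain and age, in which 0 of the 10 genes passed the edgeR test, against 1.43% of all genes. Arntl (adjusted p = 0.067) and Per2 (adjusted p = 0.0942) came nearest, 3 of the 10 had an unadjusted p under 0.05, and DESeq2 called 2 (Arntl, adjusted p = 0.00732, and Per2, adjusted p = 0.026).

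**Figure D4:**
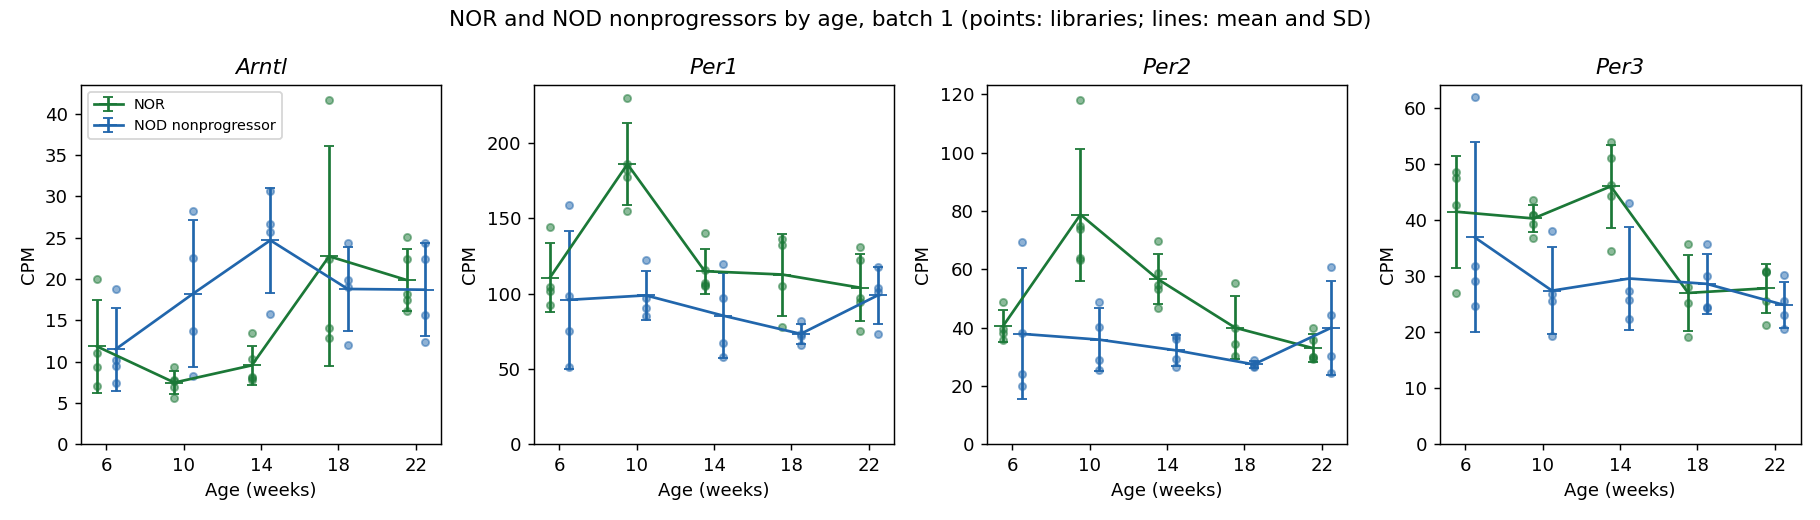
Arntl, Per1, Per2 and Per3 (CPM) by age in NOR and NOD nonprogressors of batch 1, with 1 point per library and lines at the mean with the SD. Per1 in NOR stands at 155.1 to 229.5 CPM at 10 weeks, above the 85.16 to 122.4 CPM of NP at that age.

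NOD and NOR were compared in batch 1 with the counts of each mouse summed over its ages or times, 9 NOD mice (4 NP and 5 PR) against 5 NOR mice. Deeper libraries weigh more in such a sum, and not every NOR mouse has a library at every age. After 6 weeks of age the PR libraries were timed by onset, so PR were not matched to NOR in age and include disease onset. In the edgeR test 4 of the 10 genes differed, 1 higher and 3 lower in NOD, against 8.98% of all genes (3.87% higher and 5.11% lower). Arntl was higher in NOD by 0.595 on the log2 scale (SE 0.119, adjusted p = 0.00517), with 11.54, 13.89, 13.48, 13.61 and 10.58 CPM in NOR, 20.9, 19.35, 13.76 and 18.64 CPM in NP and 15.19, 17.38, 23.89, 21.38 and 21.09 CPM in PR. Per1 fell by 0.612 in NOD (SE 0.114, adjusted p = 0.0029), with 136.9, 149.2, 128.4, 148.5 and 125.2 CPM in NOR, 92.85, 84.96, 70.43 and 122.9 CPM in NP and 91.92, 91.68, 104.7, 68.24 and 83.05 CPM in PR. The strains did not overlap in Per1, and NP mouse 3 alone (13.76 CPM) reached into the NOR range of Arntl. Per2 fell by 0.651 in NOD (SE 0.116, adjusted p = 0.0021), with 50.44, 67.72, 47.55, 54.97 and 55.35 CPM in NOR, 26.8, 35, 32.7 and 48.36 CPM in NP and 28.58 to 37.6 CPM in PR. Per3 fell by 0.416 in NOD (SE 0.116, adjusted p = 0.038), with 34.31 to 44.27 CPM in NOR, 23.3 to 39.31 CPM in NP and 23.14 to 33.67 CPM in PR. Per3 no longer passed when any 1 of 8 mice was left out (NOR mouse 1, 3 or 5, NP mouse 1 or 3, or PR mouse 1, 3 or 4, edgeR adjusted p between 0.057 and 0.103) or with no filter on low counts (adjusted p = 0.0538). The other 6 did not pass: Clock 0.104, Npas2 0.0172, Nr1d1 0.259, Nr1d2 −0.0627, Dbp −0.185 and Cirbp 0.0856 on the log2 scale (adjusted p between 0.154 and 0.952). The median log2 difference was −0.0228 over the 10 genes and −0.00161 over all genes tested.

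The strains were also compared without the NOR libraries of 10 weeks. Without them 0 of the 10 genes passed the edgeR test, and the log2 differences were 0.371 for Arntl (adjusted p = 0.0834), −0.344 for Per1 (adjusted p = 0.0969), −0.314 for Per2 (adjusted p = 0.101) and −0.365 for Per3 (adjusted p = 0.122). Of the 18 other clock genes, Arntl2, a relative of Arntl, was higher in NOD (0.407, adjusted p = 0.0432) and Tef lower (−0.316, adjusted p = 0.0296), of the 13 glucocorticoid and immediate early genes Tsc22d3 was lower (−0.445, adjusted p = 0.0245), and of the 10 temperature genes none passed. Summed CPM of the macrophage markers was 3350 to 8360 in NOR and 3170 to 7670 in NOD libraries, and of the fibroblast markers 14300 to 67100 and 6740 to 59500, and their part in the result was not tested.

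Over age in NP and over time to onset in PR, Cirbp and Npas2 were the genes of the 10 that passed most often. In the main fit of each such comparison, the share of the 10 genes that passed was below that of all genes. Libraries of 6 weeks come from first implants, and later ones can come from replacements after further surgery. Age or time to onset therefore cannot be told apart from time in place and repeated surgery. In PR of batch 1, Cirbp was the 1 gene of the 10 that differed between times (edgeR, adjusted p = 0.000955), against 18.8% of all genes. It was 11.13, 10.3, 11.84, 10.05 and 8.944 CPM at 6 weeks of age in mice 1 to 5, a mean of 10.45 ± 1.102 CPM (SD, n = 5), below each of the 20 later libraries (13.76 to 22.82 CPM). The mean was 16.42 ± 2.208, 18.57 ± 2.864, 19.71 ± 1.749 and 19.4 ± 2.456 CPM (SD, n = 5 each) at 5, 3 and 1 weeks before onset and at onset. In PR of batch 2, Cirbp (adjusted p = 0.00192) and Npas2 (adjusted p = 0.00762) differed between times, 2 of the 10 genes against 27.9% of all genes. Cirbp was 8.196, 9.298, 11.78, 9.124 and 11.89 CPM at 6 weeks in mice 6 to 10 (mean 10.06 ± 1.677 CPM, SD, n = 5), and its means at later times lay between 15.26 and 18.59 CPM. Here the later libraries overlapped those of 6 weeks, with 10.89 CPM in mouse 6 at onset and 11.58 CPM in mouse 8 at 3 weeks before onset.

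Npas2 in PR of batch 2 was 30.95, 40.75, 24.44, 19.85 and 25.08 CPM at 6 weeks and 53.01, 41.93, 53.14, 52.28 and 55.84 CPM at onset in mice 6 to 10. Its mean was 28.21 ± 8.04 CPM at 6 weeks and 51.24 ± 5.375 CPM at onset (SD, n = 5 each), with no overlap between them. Without mouse 8 (adjusted p = 0.0725) or mouse 10 (adjusted p = 0.0727) Npas2 no longer passed, which left 1 gene, and without mouse 7 Arntl passed as well (adjusted p = 0.0397), which made 3. With mouse as a block, which the repeated libraries of a mouse allow, 4 genes passed, the others being Per3 (adjusted p = 0.0158) and Dbp (adjusted p = 0.0382). The mean of Dbp in these libraries was 37.61 ± 8.456 CPM at 6 weeks (SD, n = 5) and 13.38 ± 4.677 CPM at onset (SD, n = 5), and 32.28 ± 26.34 CPM at 7 weeks before onset (SD, n = 8), where the mice split as described above. Without the 7-week libraries of mice 6, 7, 9 and 10, 7 of the 10 genes passed, Arntl among them (adjusted p = 5.7e-05), against 30.8% of all genes, and without those of mice 1 to 4, 2 passed, against 24.6% of all genes. The first of these fits leaves mice 1 to 4 of the other cohort as the only mice at that time, so its added calls restate the split already described.

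In NP of batch 2 both genes were also higher at the later age. Between 6 and 14 weeks of age 2 of the 10 genes differed in the edgeR test, both higher at 14 weeks, against 34.1% of all genes (16.8% higher). Cirbp was 12.75, 11.42, 7.957, 10.07, 12.01, 12.19 and 12.83 CPM at 6 weeks in mice 5 to 11 and 16.27, 12.1, 14.58, 24.41, 19.12 and 16.0 CPM at 14 weeks in mice 5 to 10. It rose by 0.595 on the log2 scale (SE 0.153, adjusted p = 0.00876), and its lowest 14-week value lay within the 6-week range. Npas2 was 38.43, 32.77, 27.54, 25.4, 26.82, 30.92 and 22.13 CPM at 6 weeks and 49.86, 32.71, 37.95, 42.12, 43.83 and 42.67 CPM at 14 weeks. It rose by 0.513 (SE 0.117, adjusted p = 0.00469). Dbp had the largest estimate in size, −0.86 (SE 0.345, adjusted p = 0.0674), from 34.15 ± 13.89 CPM (SD, n = 7) to 18.86 ± 9.18 CPM (SD, n = 6), and did not pass by edgeR, though DESeq2 called it (adjusted p = 0.029).

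In NP of batch 1, 0 of the 10 genes differed between the 5 ages in the edgeR test, against 13.6% of all genes. Cirbp (adjusted p = 0.0847) and Npas2 (adjusted p = 0.0922) were the nearest, 3 of the 10 had an unadjusted p under 0.05, and DESeq2 called both (adjusted p = 0.0206 and 0.0227). Without NP mouse 2, Nr1d1 passed (adjusted p = 0.0199). Each mouse's mean over later libraries of the same batch was also set against its own 6-week library. Cirbp was higher later in 5 of 5 PR mice of batch 1 (median 1.83-fold), 5 of 5 PR mice of batch 2 (1.62-fold), 4 of 4 NP mice of batch 1 (1.43-fold), 6 of 6 NP mice of batch 2 (1.45-fold) and 2 of 4 NOR mice (1.27-fold). Npas2 was higher later in 5 of 5, 4 of 5, 4 of 4, 5 of 6 and 3 of 4 of the same sets of mice. Without the 18-week library of NOR mouse 5 that ribosomal RNA dominated, Cirbp was higher later in 3 of 4 NOR mice (median 1.34-fold) and Npas2 in 2 of 4. These ratios were not tested between NOR and NOD. In the interaction of strain and age given above, for NP and NOR of batch 1, neither gene passed the edgeR test.

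**Figure D5:**
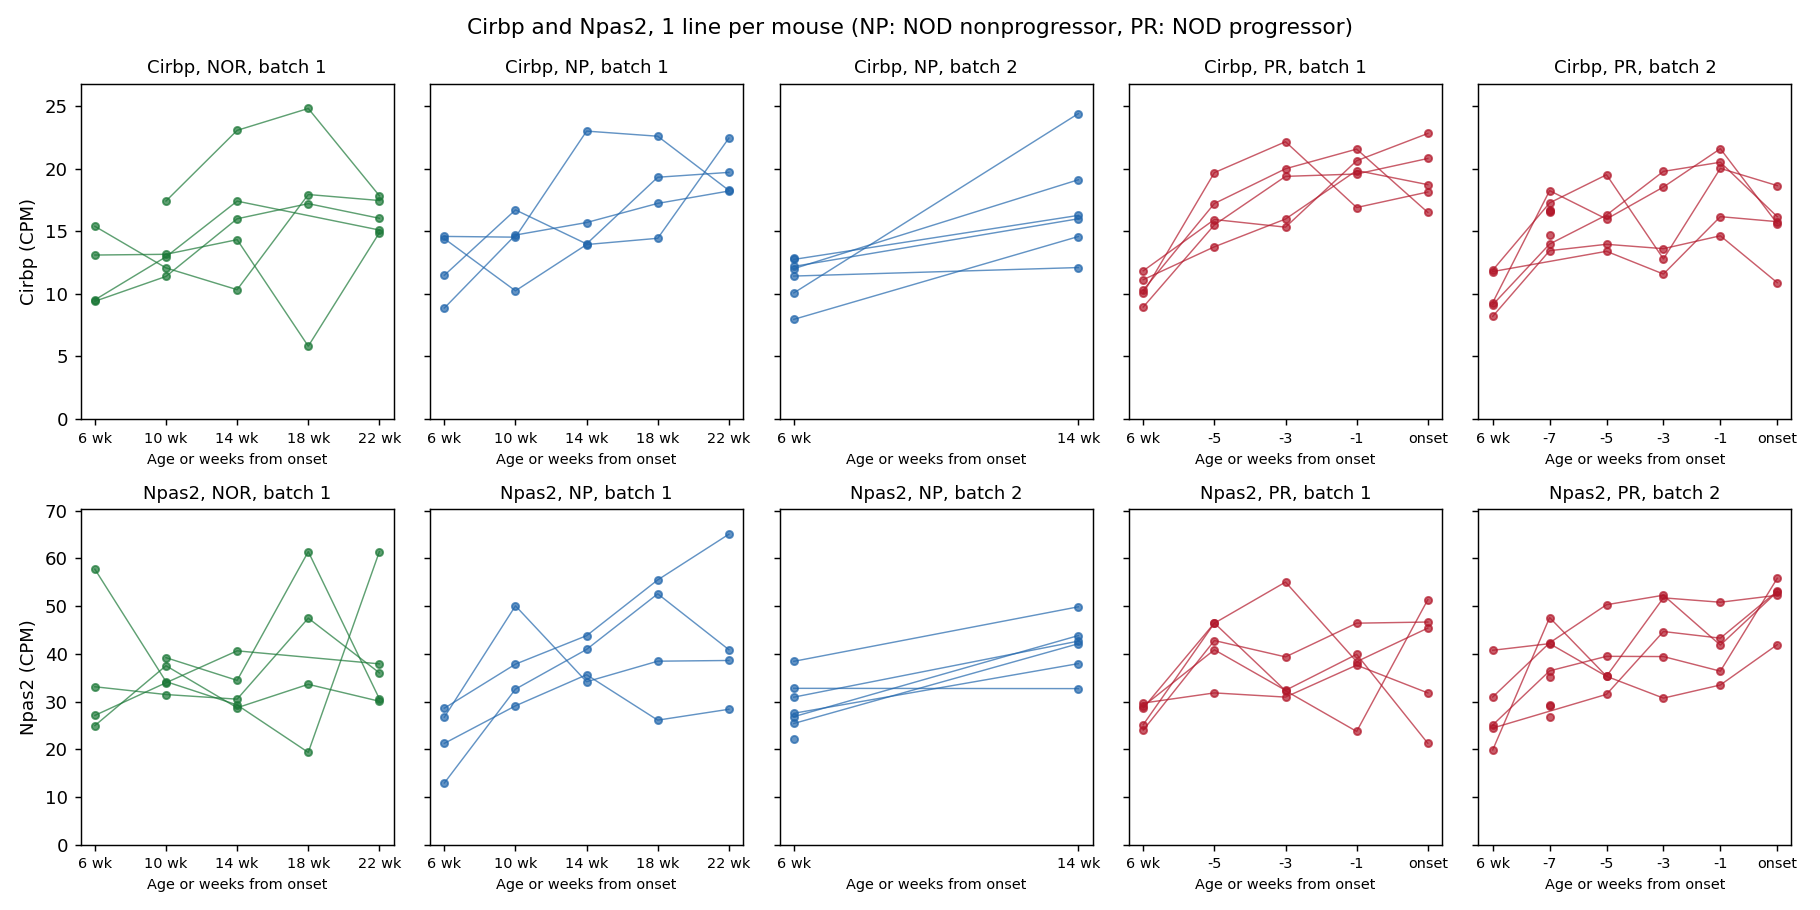
Cirbp (top) and Npas2 (bottom) in CPM by age or weeks from onset, with 1 line per mouse and 1 panel per condition and batch. In PR of batch 1 all 5 mice start at 8.944 to 11.84 CPM of Cirbp at 6 weeks and stay at 13.76 CPM or above later.

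Genes of the other 3 lists were read in the same comparisons. Rbm3, the closest relative of Cirbp and likewise cold-inducible, fell by 0.482 on the log2 scale between 6 and 14 weeks in NP of batch 2 (SE 0.0936, adjusted p = 0.00182), 1 of 2 of the 10 temperature genes that passed there, both lower. In PR, 3 of the 10 temperature genes differed between times in batch 1 (Rbm3, Hspa8 and Hspd1) and 6 in batch 2 (Rbm3, Hspa1a, Hspa1b, Hspa8, Hsph1 and Hsp90aa1). The direction of Rbm3 was not the same in the 2 batches of PR. Its mean at 6 weeks minus that of later libraries was −0.367 on the log2 scale in batch 1 (higher later) and 0.429 in batch 2 (lower later). Among the other clock genes, Rorb, Nfil3 and Wee1 differed between times in PR of batch 2. In NP of batch 2, Rorb (−2.58 on the log2 scale) and Wee1 (−0.561) were lower at 14 weeks, and Hlf (1.37), Arntl2 (0.893), Bhlhe41 (0.352) and Csnk1e (0.233) were higher. Summed CPM of the fibroblast markers was 31700 to 59500 at 6 weeks and 6740 to 31600 later in PR of batch 1, and 31700 to 58500 and 4790 to 29400 in PR of batch 2, so the later libraries, in which Cirbp was higher, had the lower sums, and its part in the result was not tested.

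Progressors and nonprogressors were compared at 6 weeks of age, before hyperglycemia, in 10 PR and 11 NP mice with batch as a term. None of the 10 genes passed, 0 of 10 by edgeR and 0 by DESeq2, against 0.0% of all 20090 genes tested, of which 999 had an unadjusted p under 0.05. None of the 10 had an unadjusted p under 0.05. The estimates in PR over NP were small, with Cirbp at −0.197, Nr1d1 at 0.182 and Arntl at 0.17 on the log2 scale, a median of 0.0636 over the 10 and adjusted p of 0.909 or more.

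The same 21 mice show how the levels moved with the batch, in which cohort and instrument cannot be told apart. In the edgeR test with condition as a term, 6 of the 10 genes differed, 2 higher and 4 lower in batch 2, against 60.8% of all genes (30.1% higher and 30.7% lower). Arntl was higher by 0.743 on the log2 scale (SE 0.146, adjusted p = 0.000163) and Clock by 0.413 (SE 0.0533, adjusted p = 1.16e-06). Dbp fell by 1.09 (SE 0.211, adjusted p = 0.000144), Per2 by 0.915 (SE 0.237, adjusted p = 0.00221), Per1 by 0.69 (SE 0.172, adjusted p = 0.0016) and Cirbp by 0.362 (SE 0.104, adjusted p = 0.00469). The share of the 10 was thus near that of all genes. Of the 18 other clock genes 13 differed, 5 higher and 8 lower, and of the 13 glucocorticoid-responsive and immediate early genes 10 differed, all lower in batch 2.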

How the data were processed

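The authors deposited gene-level expected counts (estimated counts, whole numbers in the files, not normalized) for each batch. The submitters' processing notes name cutadapt, FastQC, STAR, RSEM and MultiQC and the build GRCm38, and versions are not given in the sources used here. The 10 genes and the other gene lists were chosen with earlier results of these data known. CPM used library sizes scaled by TMM within batch (edgeR 4.0.16, R 4.3.3), and log2 CPM a prior count of 2. Each comparison was fitted over all genes that passed filterByExpr with edgeR's quasi-likelihood test, with Benjamini-Hochberg adjustment over all of them and a threshold of 0.05, and all 10 genes passed the filter each time. Correlations used 2-sided permutation tests within groups (100000 resamples, scipy 1.17.1). All 10 genes, genes passing in each list and genes most like a member are named, and some results of the lists are not reported here. Libraries of a mouse share the animal by their labels. Their deviations had a mean correlation between −0.00753 and 0.0293, against −0.00818 to 0.00194 between mice. Scripts were tested on simulated counts. DESeq2 1.42.0, other filters, blocks and left-out mice or libraries were alternatives.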

Additional observations from a re-analysis of the deposited data

Results flagged for a closer look

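Of 230 values by gene and group, 7 held a library whose gap to the nearest of the others exceeded Dixon's 95% critical value, which chance exceeds in about 1 in 20 groups. PR mouse 8 of batch 2 at 1 week before onset had 2 of the 7, with Dbp at 2.313 CPM (the other 4 mice 27.37 to 36.97) and Nr1d1 at 18.48 CPM (59.65 to 73.86). NOR at 10 weeks had 2, with Per2 at 118.1 CPM in mouse 2 (63.15 to 74.72 in the others) and Dbp at 70.45 CPM in mouse 4 (87.8 to 95.83). Npas2 at onset was 41.93 CPM in PR mouse 7 of batch 2 (52.28 to 55.84). Per1 at 1 week before onset was 126.9 CPM in PR mouse 3 of batch 1 (60.2 to 72.01). Nr1d2 at 6 weeks was 55.32 CPM in NP mouse 5 of batch 2 (79.87 to 101.9).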

How the results depend on the processing

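Over the alternatives, 909 values of single genes kept direction and side of the threshold, 40 lost and 20 gained significance, and 1 reversed: Arntl in NOD against NOR, −0.038 on the log2 scale with NP and NOR of 18 and 22 weeks alone. That subset and the 6-week libraries alone each gave 0 of the 10 genes for the strains, as did leaving out the NOR libraries of 10 weeks, against 4. For the ages of NOR, leaving out a mouse gave 3 to 5 genes and leaving out the 10-week libraries 1, against 6. DESeq2 called 2 genes for NP ages of batch 1 and 2 for the course of strain over age, against 0 each, and leaving out a mouse gave 0 to 1 for those NP ages. Both batches together, with batch as a term, gave 4 for PR times, against 1 in batch 1 and 2 in batch 2. For PR of batch 2, leaving out a mouse gave 1 to 3 genes, leaving out the 7-week libraries of mice 6, 7, 9 and 10 gave 7, and mouse as replicate block gave 4, the paired fit changing no other count by over 1.5 times. The subset of 18 and 22 weeks and the settings without the 10-week or 7-week libraries were chosen after seeing the data. Fewer libraries entered each subset, and otherwise the cause was not tested. All-gene counts of calls over the alternatives ran from 208 to 3509 for NOR ages, 409 to 4745 for NP ages of batch 1, 5458 to 7338 for NP of batch 2, 573 to 7574 for PR of batch 1, 3840 to 7574 for PR of batch 2, 403 to 3013 for the strains, 0 to 1073 for the course and 8529 to 13288 for the batches, and were 0 throughout for PR against NP. The added settings that leave out single libraries for ranges and within-mouse ratios stand beside those values.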
